A study of Mus musculus with 8 samples.

Results

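The Gimap genes encode small GTPases of the immunity-associated protein family, and all 8 members named here (Gimap1, Gimap3, Gimap4, Gimap5, Gimap6, Gimap7, Gimap8 and Gimap9) were measured, each by 1 probeset that maps to that gene alone, among 19938 genes and 21789 such probesets in all. The members were chosen by gene family, after the values of these probesets in the 3 groups had been seen. Levels and differences of the members are therefore a description, and the counts of calls among them support nothing further.

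Expression was measured on 8 microarrays of mouse bone marrow cells cultured for 4 days on OP9-DL4, a stromal line that presents the Notch ligand Delta-like 4, with Flt3L at 5 ng/ml and, as labelled, IL1 at 1 ng/ml. The starting cells in every group were lymphoid primed multipotent progenitors, a bone marrow population with lymphoid and myeloid potential. T lineage cells (CD45.2 positive, sorted as Thy1+CD25+) came from Tcf1 wildtype (+/+) progenitors in 2 replicates. Lineage-negative cells (CD45.2 positive, sorted as negative for Mac1, Gr1, Thy1 and CD25) came from 3 Tcf1 deficient (-/-) mice and from 3 Tcf1 wildtype mice. Tcf1 is a transcription factor of early T cell development. The mutation is carried through the germ line, the mice are labelled as kept on a mixed background, and their age is not given in the sources used here. No T lineage cells arose from deficient progenitors per the labels, so deficient T lineage cells have no array. The targeted transcript itself was not analysed here.

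GIMAP proteins share a nucleotide-binding GTPase domain, and several are anchored in the membranes of organelles. In mice and rats they are best known for keeping lymphocytes alive: loss of some members leaves too few peripheral T cells. Their genes lie side by side in 1 cluster, and lymphoid cells transcribe them strongly.

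In gene order the cluster runs Gimap8, Gimap9, Gimap4, Gimap6, Gimap7, Gimap1, Gimap5 and Gimap3 on chromosome 6, with 0 other tested genes between them. The RefSeq tables of build GRCm38.p6 held a promoter window for all 8 genes, with 9 windows in all because Gimap8 has a second start. The 250 bases before the start are shown for the members with the largest T lineage differences (Gimap1, Gimap9 and Gimap5) and, for contrast, for Gimap3, the member with the smallest. They lie at chr6:48738797-48739046 (plus strand), chr6:48675885-48676134 (plus strand), chr6:48745947-48746196 (plus strand) and chr6:48770852-48771101 (minus strand). Each is written 5′ to 3′ on the strand of its gene, and capitals mark a match to the core letters of Ets (AGGAAG) or Runx (TGTGGT) sites on either strand.
Gimap1: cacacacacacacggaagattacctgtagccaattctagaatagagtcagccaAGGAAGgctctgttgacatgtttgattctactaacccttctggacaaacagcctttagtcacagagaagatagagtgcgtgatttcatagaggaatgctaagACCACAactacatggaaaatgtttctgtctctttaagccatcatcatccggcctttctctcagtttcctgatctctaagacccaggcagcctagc
Gimap9: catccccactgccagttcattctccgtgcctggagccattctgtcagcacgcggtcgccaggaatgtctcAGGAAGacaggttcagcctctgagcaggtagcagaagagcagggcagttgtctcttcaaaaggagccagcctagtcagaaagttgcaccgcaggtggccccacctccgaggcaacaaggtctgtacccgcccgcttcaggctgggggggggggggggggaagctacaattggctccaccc
Gimap5: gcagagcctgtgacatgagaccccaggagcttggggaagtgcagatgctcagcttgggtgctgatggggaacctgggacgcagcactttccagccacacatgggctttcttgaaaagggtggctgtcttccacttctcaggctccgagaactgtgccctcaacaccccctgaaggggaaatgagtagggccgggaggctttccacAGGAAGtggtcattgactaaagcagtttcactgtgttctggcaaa
Gimap3: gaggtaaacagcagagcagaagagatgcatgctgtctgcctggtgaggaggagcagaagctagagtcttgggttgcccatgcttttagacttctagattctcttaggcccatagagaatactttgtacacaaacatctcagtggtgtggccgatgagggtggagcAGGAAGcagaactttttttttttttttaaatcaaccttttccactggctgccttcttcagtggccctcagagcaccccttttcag

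Ets and Runx proteins are transcription factor families of lymphoid cells. AGGAAG was present on one strand or the other in 7 of the 9 Gimap windows of 250 bases. That compares with 29.5% of the 32851 windows of that length in the table. These windows belonged to 7 genes, all but Gimap6, whose window holds CGGAAG, letters that were not searched. Gimap4 had the letters at 87 and 33 bases before its start, and Gimap5 at 45 bases. TGTGGT was present in 3 of 9 windows (Gimap1, Gimap4 and Gimap7), against 14.0% of all windows. CTTTGA, core letters of sites bound by Tcf1 and its relatives, was in 0 of 9 windows, against 13.8% of all. With the 50 bases after the start included it was in 2 of 9 (Gimap4 and Gimap7), against 16.0% of all. AGATAA, a form of the GATA letters, was in 0 of 9 windows (9.99% of all). Other forms were not searched, such as AGATAG, which the Gimap1 window holds. The E-box CANNTG was in 7 of 9 windows (66.2% of all). They belonged to 6 genes, as both Gimap8 windows, which overlap, held it. In the 9 windows no AGGAAG match overlapped a TGTGGT match, and overlap with the E-box was not counted. A match is a run of letters, not a site shown to be bound, and the Gimap3 window holds AGGAAG as do those of the members with large differences.

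Gimap transcripts were higher in T lineage cells, relative to wildtype lineage-negative cells. The probeset values are log2 values after RMA (robust multi-array averaging), so a difference of 1 is a 2-fold change. Of the 8 members 7 rose and 1, Gimap3, did not pass, where a call is a limma p adjusted over all 21789 probesets of under 0.05. Over all probesets 18% passed in this comparison, 7.66% higher and 10.4% lower. That balance turned with a second quantile normalization, where 2174 probesets were higher and 2006 lower, against 1670 higher and 2258 lower in the deposited values, while 7 members passed in both. The members' differences ran from 0.19 to 1.78 with a median of 1.02, beside a median of 0.04 over all tested probesets. Both T lineage arrays lay above all 3 wildtype lineage-negative arrays for 8 of 8 members, which held for 28% of all probesets, and for 0 of 8 members both lay below, against 19.8% of all.

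Gimap5 maintains T cells and blood progenitors in mice and rats, where its loss causes lymphopenia. Its probeset read 5.93 and 6.17 on the T lineage arrays, 4.52, 4.56 and 4.78 on the deficient and 4.49, 4.85 and 4.90 on the wildtype lineage-negative arrays. The T lineage arrays stood clear of the other 6, and the genotypes overlapped. It rose by 1.30 (SE 0.13) against wildtype and by 1.43 (SE 0.13) against deficient lineage-negative cells. On 6 of 6 lineage-negative arrays it lay below the array's lower quartile, which was between 5.81 and 5.92 over the 8 arrays. No detection call was used, so whether it was above background there was not tested, and the log2 difference is given without a fold.

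Gimap3, the neighbour and closest relative of Gimap5 in the mouse, read 4.61 and 4.53 in T lineage cells, 4.27, 4.49 and 4.34 in deficient and 4.40, 4.34 and 4.37 in wildtype lineage-negative cells. All 8 arrays lay within a narrow band, each below the lower quartile of that array. The difference was 0.19 (SE 0.08) against wildtype and 0.20 (SE 0.08) against deficient cells, and neither passed. Probe sequences were not used here, so whether probes of Gimap3 and Gimap5 pick up each other's transcript was not tested.

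Gimap1, which mature T and B cells of the mouse need to survive, had the largest difference of the family. Its values were 9.33 and 8.33 in T lineage cells, 6.71, 7.15 and 7.04 in deficient and 7.07, 7.13 and 6.94 in wildtype lineage-negative cells. The lower T lineage array was still above every lineage-negative array. The rise was 1.78 (SE 0.23, 3.43-fold) against wildtype, the 38th largest of all 21789 probesets, and 1.86 (SE 0.23, 3.64-fold) against deficient cells.

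Gimap9 was second. It read 10.06 and 9.80 in T lineage cells, 8.09, 8.32 and 8.41 in deficient and 8.23, 8.65 and 8.42 in wildtype lineage-negative cells. The T lineage arrays agreed closely and were far from the others. Its rise was 1.49 (SE 0.14, 2.81-fold) against wildtype and 1.65 (SE 0.14, 3.15-fold) against deficient cells.

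Gimap6 is known in human cells as a partner of an Atg8 family protein of autophagy. It had values of 8.74 and 8.15 in T lineage cells, 7.32, 7.67 and 7.92 in deficient and 7.05, 7.51 and 7.56 in wildtype lineage-negative cells. The lower T lineage array was close to the highest deficient array, with no overlap. The rise was 1.07 (SE 0.21, 2.10-fold) against wildtype and 0.81 (SE 0.21, 1.75-fold) against deficient cells. Without T lineage replicate 1 the differences were 0.77 and 0.51, and neither passed.

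Gimap7, whose human form assembles into dimers that speed GTP hydrolysis, had 7.18 and 6.70 in T lineage cells, 6.04, 6.04 and 6.24 in deficient and 6.06, 5.98 and 5.85 in wildtype lineage-negative cells. It rose by 0.98 (SE 0.13, 1.97-fold) against wildtype and by 0.83 (SE 0.13, 1.78-fold) against deficient cells. Gimap4, which speeds the death of T cells that have received an apoptotic signal in rodents, had 5.93 and 5.83 in T lineage cells, 5.07, 5.29 and 5.05 in deficient and 5.16, 5.28 and 5.12 in wildtype lineage-negative cells. For both genes the groups of lineage-negative arrays overlapped and the T lineage arrays did not reach down to them. Gimap4 rose by 0.69 (SE 0.09) against wildtype and 0.74 (SE 0.09) against deficient cells. Like Gimap5 it lay below the lower quartile on 6 of 6 lineage-negative arrays, so no fold is given. Unlike Gimap5, Gimap4 was also below it on 1 of the 2 T lineage arrays (5.83).

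Gimap8 differs from the rest of the family in carrying several GTPase domains in 1 chain. It read 6.95 and 6.37 in T lineage cells, 6.16, 6.49 and 6.18 in deficient and 6.17, 6.11 and 6.06 in wildtype lineage-negative cells. The lower T lineage array lay below the highest deficient array. The rise against wildtype was 0.55 (SE 0.16, 1.46-fold), and the difference of 0.38 (SE 0.16) against deficient cells did not pass. Without T lineage replicate 1 the difference from wildtype was 0.25 and did not pass, and without T lineage replicate 2 it was 0.84. Leaving out wildtype lineage-negative replicate 1, 2 or 3 also ended the call, with differences of 0.52 to 0.57. Against deficient cells the values were 0.09 without T lineage replicate 1 and 0.67, which passed, without T lineage replicate 2.

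**Figure D1:**
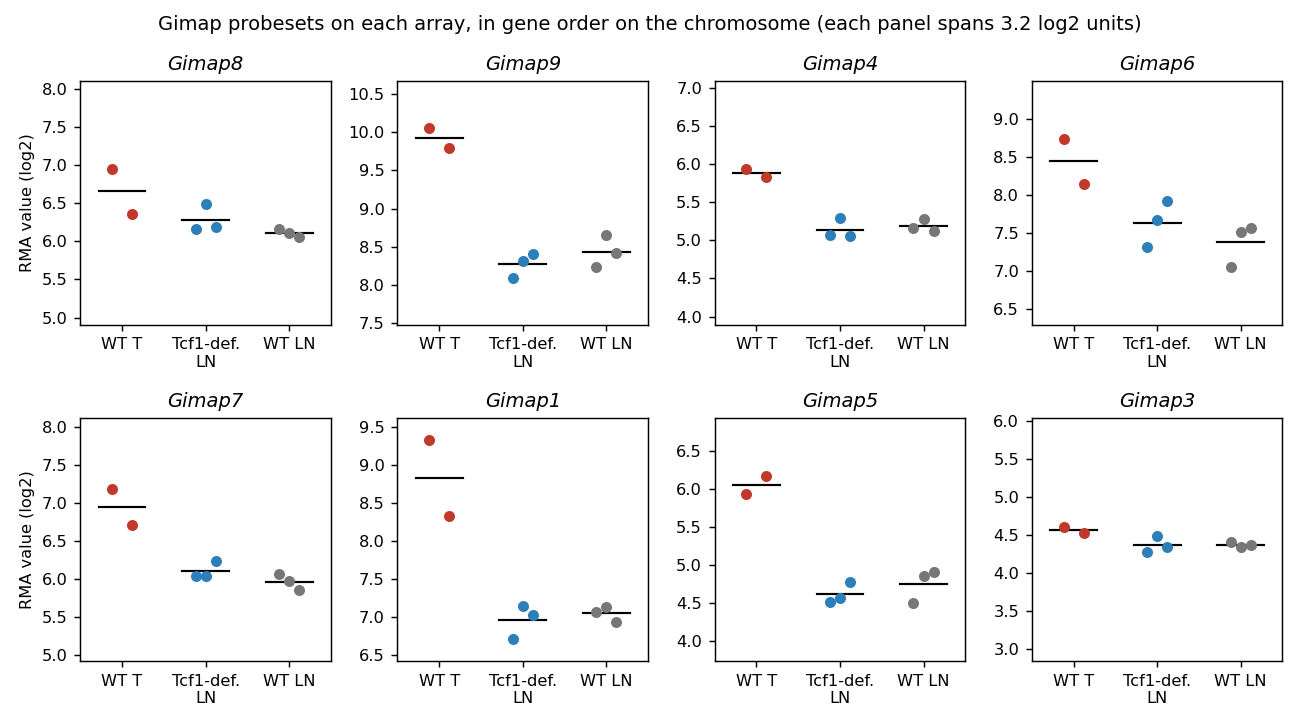
RMA values (log2) of the 8 Gimap probesets on each of the 8 arrays, 1 panel per gene in gene order, with wildtype T lineage (WT T, 2 arrays), Tcf1 deficient lineage-negative (LN, 3 arrays) and wildtype lineage-negative arrays (3) as points and the group means as bars. The T lineage points stand above the lineage-negative points except for Gimap8, where the lower T lineage array (6.37) is below 1 deficient array (6.49). For Gimap3 the groups nearly meet.

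No Gimap difference between deficient and wildtype lineage-negative cells was called. None of the 8 members passed in limma (0 at an unadjusted p under 0.05 too), and the adjusted p was 0.999 for each. Over all probesets 0.00459% passed, which is 1 of 21789. The differences ran from -0.16 for Gimap9 to 0.26 for Gimap6 with a median of -0.03, and 3 of 8 were positive. The arrays of the genotypes overlapped for 8 of 8 members. Over all probesets, deficient arrays lay above all wildtype arrays for 3.93% and below them for 6.01%. A p that misses the threshold does not show equal levels. The 95% interval of the difference was narrowest for Gimap3 (-0.17 to 0.16) and wide for Gimap6 (-0.16 to 0.68) and Gimap1 (-0.54 to 0.37). For Gimap5 it was -0.39 to 0.13 and for Gimap9 -0.43 to 0.11.

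Against deficient lineage-negative cells the T lineage cells had 6 of 8 members higher, with Gimap3 and Gimap8 not past the test. Over all probesets 14.1% passed, 5.98% higher and 8.16% lower, which is 1302 and 1779 probesets. After a second quantile normalization these were nearly even, at 1653 higher and 1701 lower, with 6 members called. The members' median difference was 0.82, beside 0.04 over all tested probesets. Both T lineage arrays lay above all 3 deficient arrays for 7 of 8 members and below them for 0, against 23.6% and 17.1% of all probesets. This comparison shares its T lineage arrays with the one against wildtype cells.

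The T lineage replicates were not alike in these genes. Replicate 1 was above replicate 2 for 7 of 8 members, by 0.99 for Gimap1, 0.59 for Gimap6, 0.59 for Gimap8 and 0.48 for Gimap7, and Gimap5 was lower by 0.24. The 6 measured T lineage markers, Cd3d, Cd3e and Cd3g of the T cell receptor complex, the adaptor Lat and the factors Bcl11b and Gata3, were all higher in replicate 1, by 0.03 to 1.68. Among the 1670 probesets that rose in T lineage cells, 49.8% were higher in replicate 1, and among all 21789 tested probesets 53.9% were. Whether the marker levels have a part in the Gimap levels was not tested.

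**Figure D2:**
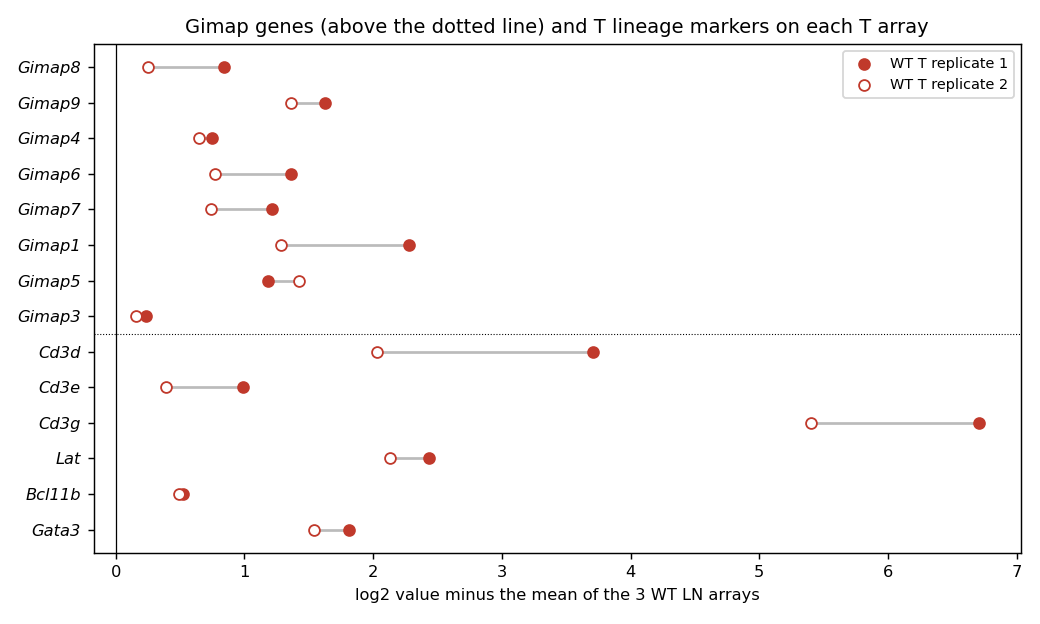
Log2 values of the 8 Gimap genes and 6 T lineage markers on each wildtype T lineage array, less the mean of the 3 wildtype lineage-negative arrays. Filled points (replicate 1) lie to the right of open points (replicate 2) for every gene except Gimap5.

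The sorted groups also differed in markers of other cells. Against wildtype lineage-negative cells, 7.66% of all probesets rose in T lineage cells and 10.4% fell. Averaged over the markers on each array, the 6 T lineage markers read 8.54 to 9.24 in T lineage cells, 6.50 to 6.67 in deficient and 6.46 to 6.62 in wildtype lineage-negative cells, and all 6 rose against wildtype. The 10 dendritic cell markers read 6.16 to 6.28 in T lineage cells, 9.25 to 9.50 in deficient and 9.40 to 9.64 in wildtype lineage-negative cells. Of these 8 fell in T lineage cells against wildtype, among them H2-Aa, a chain of MHC class II (-5.37, limma adjusted p = 3.85e-08). Of 9 granulocyte and monocyte markers 6 fell, and their average was 6.60 to 6.79 in T lineage cells, 8.59 to 8.67 in deficient and 8.53 to 9.15 in wildtype lineage-negative cells. The lineage-negative arrays thus held dendritic and myeloid transcripts although Mac1 and Gr1 positive cells were gated out. Of the 9 granulocyte and monocyte markers only Mpo, 1 of the 3 that did not pass, read high in T lineage cells. Mpo averaged 11.11 there, 11.66 in deficient and 11.65 in wildtype lineage-negative cells. The other markers of this list averaged from 4.70 (Ly6g) to 6.76 (Lyz2) in T lineage cells. Of 7 endothelial markers, of interest because endothelium also makes Gimap transcripts, 2 fell (Pecam1 and Cdh5) and 0 rose. In wildtype lineage-negative cells Pecam1 averaged 10.44 and Cdh5 7.44, while Cldn5 (6.54), Esam (6.27), Kdr (5.63), Tek (5.14) and Emcn (4.83) averaged lower. Whether endothelial cells were present was not tested. Also against wildtype cells, of 7 NK markers 1 rose (Il2rb) and 1 fell (Klrd1), and of 6 B lineage markers 1 fell (Cd79b). Of 6 stem and progenitor markers 1 rose (Kit) and 1 fell (Meis1), and of 7 stromal markers 0 passed. Against deficient cells 1 of the 7 stromal markers fell (Sparc, -0.54, limma adjusted p = 0.0021). Of the 6 stem and progenitor markers 0 rose there and 2 fell (Meis1 and Hlf). In such sorted bulk samples a larger share of cells with a transcript and more transcript per cell cannot be told apart, and the part of cell makeup in the Gimap differences was not tested.

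The genes that flank the cluster did not move as a block with it. Of the 5 nearest tested genes on each side, 2 rose, 2 fell and 6 did not pass between T lineage and wildtype lineage-negative cells. Their median difference was 0.07. Over all probesets 7.66% rose and 10.4% fell in this comparison. Next to Gimap3, Tmem176b fell by 1.38 (SE 0.11, limma adjusted p = 9.44e-06) and Tmem176a fell by 0.93 (SE 0.13, adjusted p = 0.000479). Both encode membrane proteins found in dendritic cells and macrophages. Tmem176b averaged 8.31 in T lineage cells and 9.69 in wildtype lineage-negative cells. On the Gimap8 side the adjacent AI854703 (0.13) and Zfp775 (0.18) did not pass, while Repin1, a zinc finger gene, rose by 0.36 (adjusted p = 0.0317) and Gm5111, given no role here, rose by 1.72 (SE 0.17, adjusted p = 5.53e-05). Gm5111 averaged 8.77 in T lineage cells and 7.05 in wildtype lineage-negative cells. Between the genotypes 0 of these 10 genes passed, each at an adjusted p of 0.999.

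**Figure D3:**
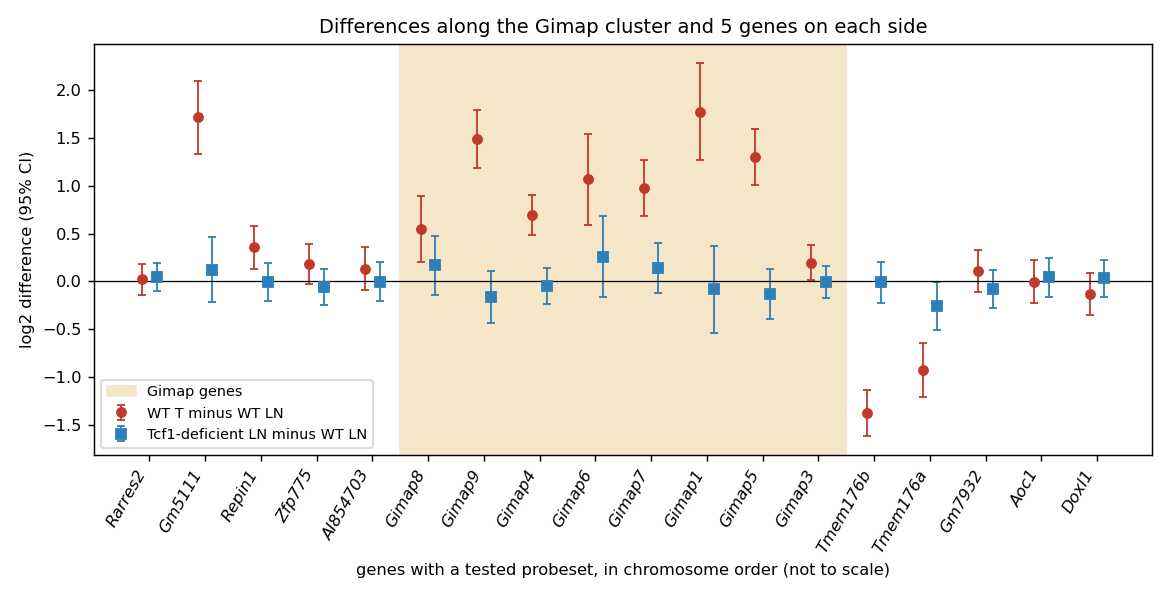
Log2 differences with 95% confidence intervals for the 8 Gimap genes (shaded) and 5 tested genes on each side, in chromosome order with no scale of distance. Circles give the T lineage cells against wildtype lineage-negative cells, and squares give Tcf1 deficient minus wildtype lineage-negative cells. The circles of the Gimap genes lie between 0.19 and 1.78 and their squares near 0, while Tmem176b (-1.38) and Tmem176a (-0.93) beside Gimap3 lie below 0.

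Among other GTPase families the septins went both ways, and the interferon-inducible GTPases that passed were all lower. The septins, GTPases that form filaments, had 2 of 12 measured genes higher and 2 lower in the T lineage cells relative to wildtype lineage-negative cells. The other 8 did not pass, and the median was 0.19. Over all probesets 7.66% were higher and 10.4% lower in this comparison. Septin1 rose by 0.91 (limma adjusted p = 0.000637) and Septin6 by 0.43, and Septin10 fell by 1.54 (adjusted p = 1.5e-05) and Septin3 by 0.48. Of 10 measured interferon-inducible GTPases 0 rose, 4 fell and 6 did not pass, with a median of -0.43. Those that fell were the antiviral Mx2 (-1.42, adjusted p = 4.38e-05) and Mx1 (-1.30), and the guanylate-binding proteins Gbp3 (-0.78) and Gbp5 (-0.68). No gene of either family passed between the genotypes by limma, where Mx2 differed by -0.35 (adjusted p = 0.872).

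Further lists hold genes tied to what GIMAP proteins do. Here T lineage cells are set against wildtype lineage-negative cells, where 18% of all probesets passed, 7.66% higher and 10.4% lower. Bcl2 family proteins set the threshold for cell death, and of 13 measured genes 2 rose, 3 fell and 8 did not pass, with a median of 0.17. The anti-apoptotic Bcl2l1 rose by 1.26 (limma adjusted p = 8.79e-05), and the anti-apoptotic Mcl1 fell by 0.50 while the pro-apoptotic Bcl2l11 fell by 0.76 and Pmaip1 by 0.44. After a second quantile normalization the call of Pmaip1 was lost and 2 of the 13 fell. The second is the Atg8 family of autophagy, where 1 of 5 genes passed, near the share of all probesets. Gabarapl2, whose protein binds GIMAP6 in human cells, fell by 0.47 (adjusted p = 0.0103).

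Genes listed for later T cell maturation, a stage at which Gimap transcripts are abundant, mostly did not rise with the family. Of 12 measured genes 1 rose, 5 fell and 6 did not pass in T lineage against wildtype lineage-negative cells, with a median of -0.20. Of all probesets 7.66% were higher and 10.4% lower in this comparison. Txk, a Tec family kinase of T cells, rose by 1.92 (limma adjusted p = 0.00015). The costimulatory receptor Cd28 fell by 1.48 (adjusted p = 0.000706), Ms4a4b by 1.06 and Il7r, the receptor of interleukin 7, by 0.95 (adjusted p = 0.00806). Klf2 (-0.01) and S1pr1 (0.01), a factor and a receptor of T cells that leave the thymus, did not pass. Some listed genes already averaged high in wildtype lineage-negative cells, such as Satb1 (11.10), Il7r (9.99) and Cd27 (9.97), while S1pr1 averaged 6.25. Whether the list follows maturation in these cells was not tested.

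**Figure D4:**
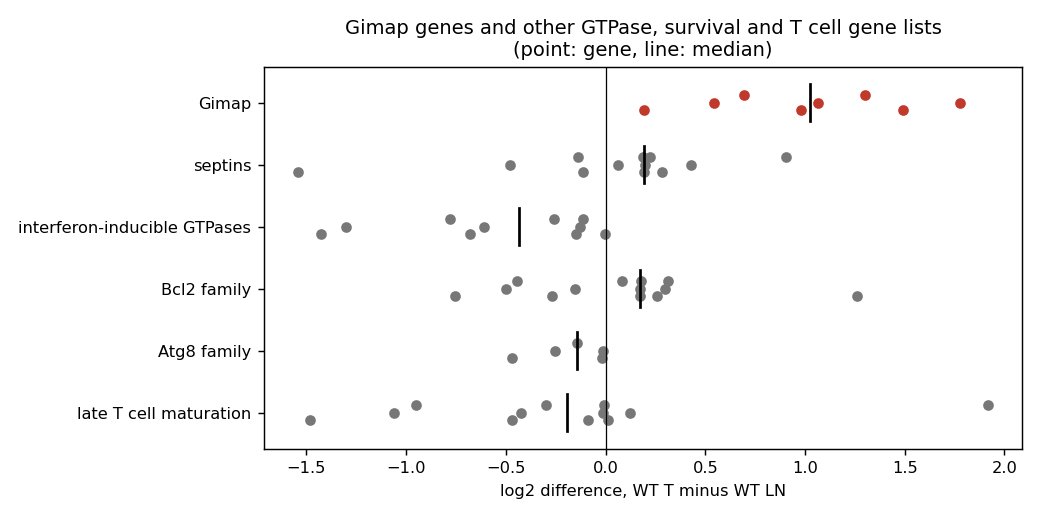
Log2 differences, wildtype T lineage minus wildtype lineage-negative cells, for the 8 Gimap genes and for the measured genes of 5 other lists, with 1 point per gene and a line at each median. The Gimap points are all above 0 with a median of 1.02, and the medians of the other lists lie between -0.43 and 0.19. Septins, Bcl2 family and late maturation genes spread to both sides of 0, and the other lists lie at or below 0.

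The genes whose course over the 8 arrays was nearest to the largest members were found by the root mean square difference between profiles, each less its own mean. For Gimap1 these were Arpp21 (0.13 log2 units), Txk (0.15), Rgcc (0.18) and Armcx4 (0.18). For Gimap9 they were Armcx4 (0.08), F2r, a thrombin receptor (0.08), Vat1l (0.13) and Rgcc, a cell cycle regulator (0.14). Within the family Gimap1 was nearest to Gimap9 (0.24) and Gimap9 to Gimap5 (0.18). Arpp21, a phosphoprotein gene, averaged 9.39 in T lineage cells, 7.50 in deficient and 7.45 in wildtype lineage-negative cells. F2r averaged 9.43 in T lineage cells, 7.91 in deficient and 7.94 in wildtype lineage-negative cells. All these profiles share the 8 arrays and their split into gates.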

How the data were processed

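From each sample 10 ng of RNA was amplified by a whole-transcript method before biotin labelling, per the labels' protocols. The authors deposited 1 table of log2 values for 35399 probesets and 8 arrays, made with RMA in Partek 6.5 per the submitters' processing notes. That they are log2 follows from their range. Other options, the genome build and scan dates were not given in the sources used here. No detection call was used. Array medians were 6.85 to 6.91, and arrays of 1 group correlated at 0.995 to 0.997 across probesets. The number of arrays limits the precision.

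Probesets listed with no gene (11989) or several (1621) were left out, and 0 of the latter included a member. The other 21789 were fitted with limma 3.58.1 in R 4.3.3 (lmFit, eBayes), all 8 arrays as 3 groups with 5 residual degrees of freedom. Tests were two-sided, with Benjamini-Hochberg adjustment over 21789 probesets and calls under 0.05. The fit was tested on simulated data. The labels give the lineage-negative samples as separate mice, but do not say what separates the T lineage replicates.

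All 8 members were named whatever they showed. Listed genes were named as the called genes with the largest T lineage difference against wildtype, up to 4 a list. Klf2, S1pr1, Satb1, Cd27 and the named markers were added after their values were seen. Also named were 5 tested neighbours on each side and the 4 nearest profiles of the 2 largest members. A gene with several probesets was counted by that of smallest p. List symbols were matched also through RefSeq synonyms, and 99.6% of tested probesets matched RefSeq by gene identifier. Members, lists and motifs were chosen with earlier results of these data known. Arrays were left out 1 at a time, and 8 other alternatives were run.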

Additional observations from a re-analysis of the deposited data

How the results depend on the processing

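The count of members called between T lineage and wildtype lineage-negative cells was 7 and stayed between 5 and 7 when 1 array was left out; against deficient cells it was 6 and stayed between 5 and 7, and between the genotypes it was 0 throughout. Without the dimmest 40% of probesets 3 members were left in the test (Gimap1, Gimap6 and Gimap9, so Gimap3, Gimap4, Gimap5, Gimap7 and Gimap8 were not tested there), and 3 were called in each T lineage comparison, because fewer members were tested. No T lineage difference changed sign under any alternative run. Against wildtype cells, Gimap8 was also not called with the replicate block (0.51) and with all probesets in the adjustment (0.55). Against deficient cells, Gimap6 was not called without deficient replicate 1 (0.65) or 2 (0.82), without T lineage replicate 1, with all probesets (0.81) or with array weights (0.71). Between the genotypes, where no member passed, the sign turned when single arrays were left out for Gimap1 (-0.174 to 0.0413), Gimap3 (-0.064 to 0.0427) and Gimap4 (-0.12 to 1e-04); the cause was not tested. Over all probesets, 1670 rose against wildtype cells, but 1035 without T lineage replicate 1 and 1009 without replicate 2. Against deficient cells 1302 rose, but 802 and 789 without these arrays and 816 without deficient replicate 1. Of the calls over all probesets against wildtype cells 42.5% were higher, but 52% with a second quantile normalization and 45.9% with median centring; against deficient cells 42.3%, 49.3% and 44.7%. Between the genotypes the 1 call over all probesets became 0 to 12. Replicate numbers recur across groups, but the labels do not say that a number is shared, so the numbers were not taken as pairs. For arrays of the same number, correlations of deviations were -0.13, 0.02 and 0.04 between deficient and wildtype lineage-negative arrays. They were -0.14 and -0.25 between T lineage and deficient arrays, and 0.16 and 0.12 between T lineage and wildtype lineage-negative arrays. The 2 T lineage arrays deviate from their own mean by equal and opposite amounts. Correlations with them are therefore not separate evidence, and they cannot decide whether the numbers mark pairs. With the replicate block 0, 6 and 6 members were called in the genotype, wildtype and deficient comparisons. With 2 T lineage arrays, differences near those of Gimap3 and Gimap8 are at the limit of what these arrays resolve.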
